A study of Bos taurus with 6 samples.

Results

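The complement system is a cascade of secreted proteases and binding proteins that marks and perforates microbes, and most of its parts are found in blood, tissue fluid and milk. The classical route starts when the C1 complex binds antibody, the lectin route when collectins or ficolins bind sugars, and the alternative route when complement C3 reacts with a surface by itself. All of them cleave *C3* and end in a pore of late components, and host cells carry inhibitors on their membrane that stop this. Epithelial cells make some of these proteins themselves.

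Complement components and regulators were examined here as 9 genes, taken by gene symbol. They are the classical proteases *C1R* and *C1S* with their inhibitor *SERPING1*, the central component *C3*, the alternative protease *CFB*, the soluble protease *CFI*, and the membrane regulators *CD46*, *CD55* and *CD59*. Of these, 8 were among the 15693 genes of the deposited count table, and *CFI* was read from the deposited FPKM table of 32774 genes. A filter on low counts then left 7 of the 9 for testing, without *CD59* and *CFI*.

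RNA-seq was done on bovine mammary epithelial cells (bMECs) grown from lactation-stage mammary tissue of a Chinese Holstein dairy cow. The ACADSB-/- group (labelled knock out) held 3 libraries from bMECs that had received a plasmid with Cas9, green fluorescent protein and a guide against *ACADSB*, which encodes a mitochondrial enzyme of short and branched acyl-CoA breakdown. The WT group (labelled control) held 3 libraries of bMECs that the methods call wild type or negative control, with no word on whether they received a plasmid, and the labels give a serum-containing medium with insulin and hydrocortisone for both groups. The sorted cells were first grown out in plates with more serum and with antibiotics, a step not described for WT bMECs. The methods describe growth of the edited line from a single sorted cell and libraries from pooled RNA, while the series text can be read as several knockout lines, and separate cultures are not stated for either group. The p-values therefore measure how far these libraries vary, perhaps only technically, and the history of the sorted cell, its culture included, cannot be told apart from the edit. In bulk RNA, fewer cells that express a gene and less RNA per cell cannot be told apart either.

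The libraries held 30550275 to 34983965 counts, and the edited gene, *ACADSB*, was read 9, 7 and 15 times in ACADSB-/- against 38, 34 and 20 times in WT libraries (adjusted p = 0.00357, edgeR). Across genes, 58.2% of the 13720 tested genes passed an adjusted p of 0.05, with 29.7% higher and 28.6% lower in ACADSB-/- bMECs, so a share near these values says little of any gene group. The epithelial keratins *KRT8*, *KRT18* and *KRT5* were abundant in every library, while *ELF5* and *OXTR*, markers of milk-secreting and contractile mammary cells, were at 0 reads in all 6. Of other contractile genes, *MYLK* had at most 1 read per library. *ACTA2*, however, was at 75.3 ± 2.83 FPKM in ACADSB-/- and 44.4 ± 2.93 in WT bMECs (SD, n = 3). Of 12 myeloid markers, *PTPRC*, *LYZ*, *C1QA*, *C1QB* and *C1QC* were at 0 in all 6 libraries, and the list summed to 3.68 to 4.77 CPM (counts divided by the scaled library total) in ACADSB-/- and 3.26 to 4.70 in WT libraries. Among the 3 tested, *CD68* was higher (log2 fold change 0.55, adjusted p = 0.0328, edgeR) and *CSF1R*, at few counts, lower (−2.25, adjusted p = 0.000422, edgeR). Of 10 luminal markers, 8 were tested, with 4 higher (*KRT7*, *EPCAM*, *CDH1* and *CLDN4*) and 2 lower (*KRT8* and *KRT18*) and a median log2 fold change of 0.39, while their summed level, carried by *KRT8* and *KRT18*, was 5216 to 5745 CPM in ACADSB-/- and 6596 to 6950 in WT libraries. Of 7 basal markers, 5 were tested: *KRT5* (log2 fold change 0.16) and *ACTA2* (0.73) were higher, and *KRT14* (−0.92) and *KRT17* (−2.99, adjusted p = 1.15e-24, edgeR) lower. Their sum, nearly all *KRT5*, was 3951 to 4251 CPM in ACADSB-/- and 3656 to 3871 in WT libraries. The 8 fibroblast markers, mostly *DCN*, summed to 1289 to 1325 and 1106 to 1171 CPM, with *DCN* higher and *COL3A1* lower among the 5 tested. The 5 endothelial markers summed to 3.65 to 5.75 and 3.68 to 4.53 CPM, which overlapped, with *CDH5* at 0 in all 6 libraries. That sum hid opposite changes: *VWF* was higher (log2 fold change 1.11, adjusted p = 5.73e-05, edgeR) and *PECAM1* lower (−5.76, adjusted p = 3.25e-08, edgeR). *PECAM1* had 1, 1 and 0 reads in ACADSB-/- against 30, 42 and 52 in WT libraries. The low-count filter kept *PECAM1*, *CSF1R* and *ACADSB* only through their WT libraries, where each is higher, which limits their p-values. The part of these differences in the results on complement was not tested.

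The alternative protease and the abundant membrane regulators were higher in ACADSB-/- bMECs, and a classical protease and the inhibitor of C1 were lower. *CFB*, *CD55*, *CD46* and *C3* rose by 3.49, 2.88, 1.86 and 1.44 times, and *SERPING1* and *C1R* were 2.42 and 2.24 times lower, each at an adjusted p under 0.05 (edgeR's quasi-likelihood test, n = 3 per group). *C1S* did not pass the test. Thus 4 of the 7 tested members were higher and 2 lower, and 6 of the 7 had no overlap between groups, as had 63.6% of all tested genes. Their median log2 fold change was 0.53, beside 0.00 over all tested genes. At a change of at least 2-fold, 2 members were higher and 2 lower, against 5.3% and 4.92% of all tested genes, or 10.2% in both directions.

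**Figure D1:**
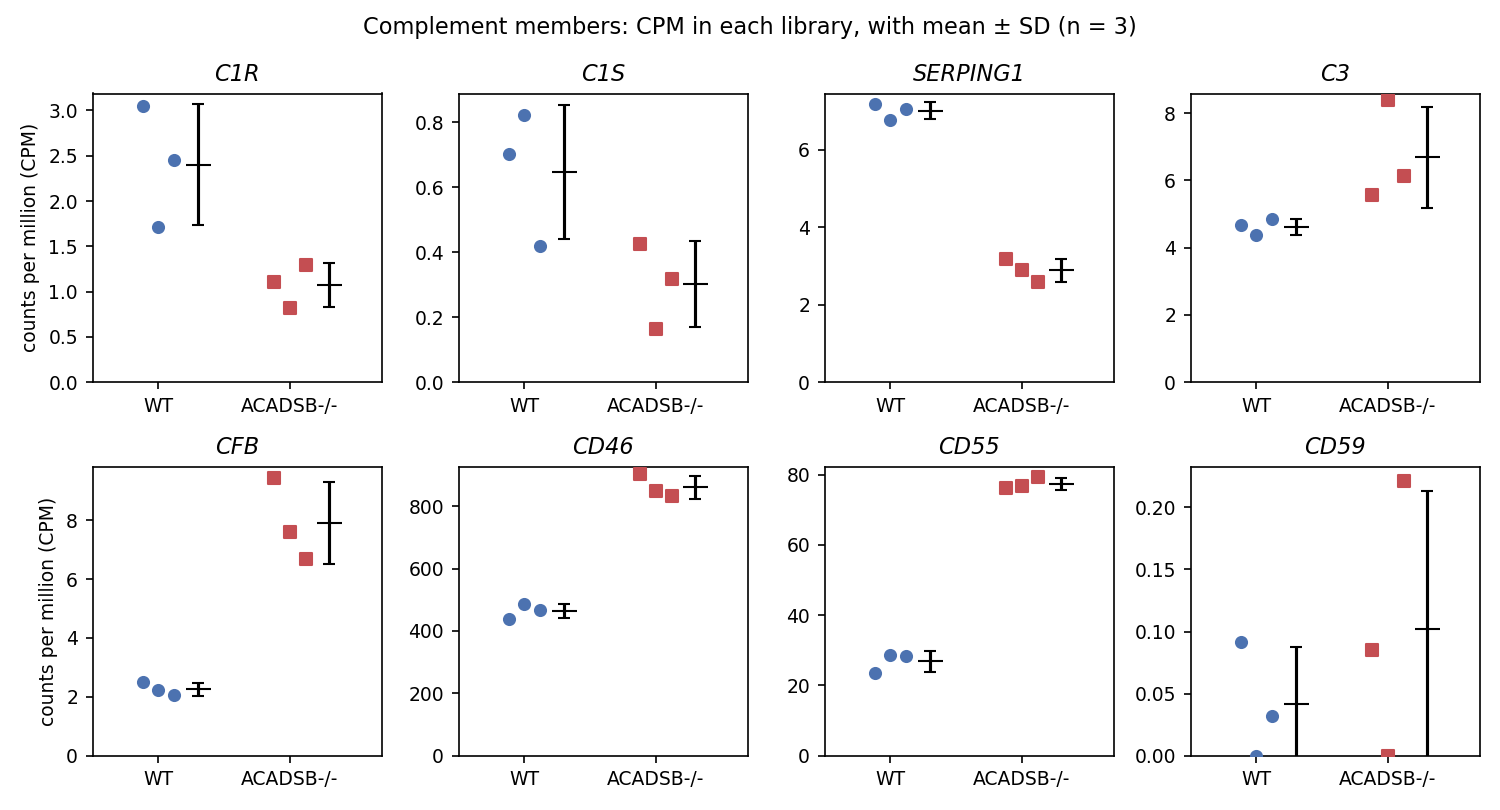
Each panel plots 1 member, with CPM on the vertical axis (from 0, scaled per panel) and a point for each library of WT (circles) and ACADSB-/- bMECs (squares); the bar beside the points is the mean ± SD of 3 libraries, cut at 0 for *CD59*. *CFB*, *CD46*, *CD55* and *C3* sat higher in all 3 ACADSB-/- libraries, *C1R* and *SERPING1* lower, and the groups overlapped for *C1S* and *CD59*.

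The members differed widely in level, which is compared here per gene length in the deposited FPKM values. *CD46* stood first with 124 ± 6.60 FPKM in WT and 236 ± 9.14 in ACADSB-/- bMECs (SD, n = 3), and its mean was exceeded by 3.63% of the tested genes. *CD55* followed with 12.1 ± 1.34 and 35.7 ± 1.10 FPKM. In WT bMECs *SERPING1* came next with 4.31 ± 0.119 FPKM, and *C1R* (0.745 to 1.32), *CFB* (0.825 to 1.01) and *C3* (0.851 to 0.926) overlapped each other below it. In ACADSB-/- bMECs *CFB* (2.79 to 3.89 FPKM) came next instead, above *SERPING1* (1.65 to 1.99), and these ranges did not overlap. *C3* (1.10 to 1.65 FPKM) and *C1R* (0.358 to 0.579) followed in ACADSB-/- bMECs, with *C1S* and *CD59* lowest among the members that had reads there. Of the summed FPKM of the 9 members, *CD46* alone gave 86.1% to 86.7% in WT and 84.0% to 85.2% in ACADSB-/- libraries. The share of *SERPING1* was 2.78% to 3.25% in WT and 0.600% to 0.689% in ACADSB-/- libraries. The sum itself rose with *CD46*, so this share fell by more than the level of *SERPING1* did.

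**Figure D2:**
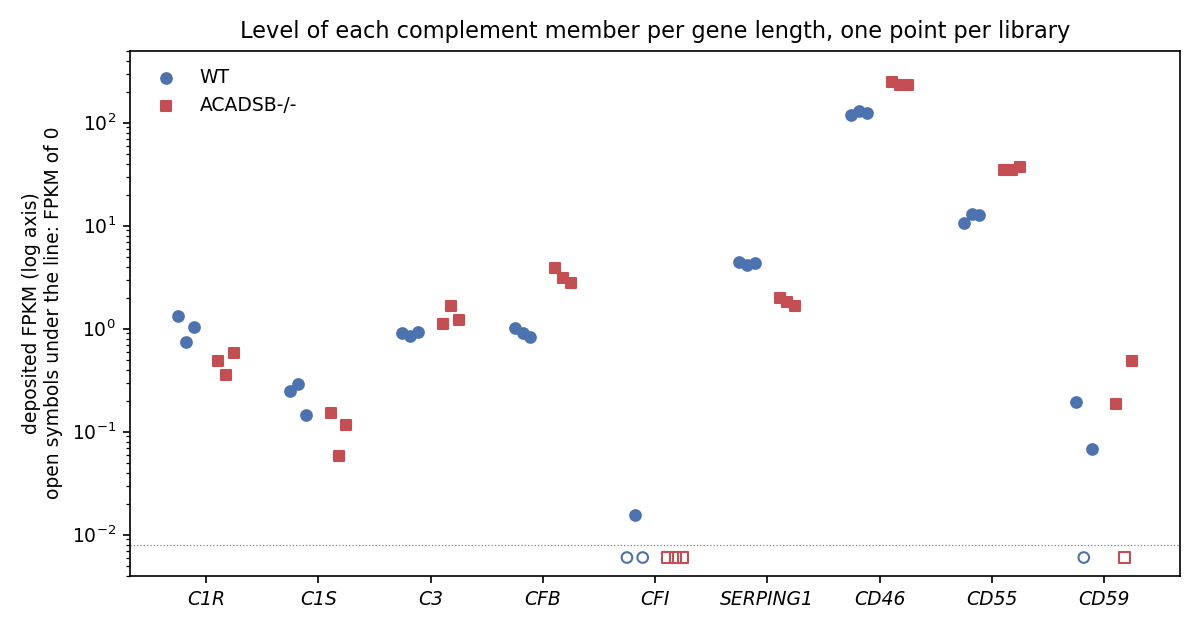
Deposited FPKM of the 9 members on a log axis, with 1 point per library (WT circles, ACADSB-/- squares) and open symbols under the dotted line for an FPKM of 0. *CD46* and *CD55* lie above 10 FPKM in every library, the classical and alternative components near or below 4.43, and *CFI* has a single value above 0.

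The C1 complex holds the proteases C1r and C1s: C1r cleaves C1s, which then cleaves the next components. *C1R* (chromosome 5, 104026718 to 104037518, plus strand, in the coordinates of the deposited table, whose build the sources used here do not name) was counted 39, 25 and 41 times in ACADSB-/- libraries and 100, 52 and 76 times in WT. Every ACADSB-/- library was below every WT library, with the closest pair at 41 and 52 counts. The log2 fold change was −1.16 (its standard error, SE, 0.291, adjusted p = 0.00108, edgeR), from 2.40 ± 0.671 to 1.07 ± 0.241 CPM (SD, n = 3). Without WT replicate 1 the value was −0.96, under the 2-fold threshold.

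*C1S* lies 20324 bases from *C1R* on the opposite strand (104057843 to 104069028), and its product is the protease that cleaves C4 and C2. It was counted 15, 5 and 10 times in ACADSB-/- libraries and 23, 25 and 13 times in WT. The WT library with 13 counts fell among the ACADSB-/- values, so the groups overlapped. The log2 fold change of −1.08 had a SE of 0.502 (adjusted p = 0.0671, edgeR), which missed the threshold at these low counts. ACADSB-/- replicate 2, with 5 counts, was under the filter's minimum count of 10, which every WT library reached. *C1S* thus passed the filter with the help of the group where it is higher, and it counts among the 7 tested members and in their median. Leaving out that WT library gave an adjusted p of 0.0456 and a log2 fold change of −1.31.

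*SERPING1* encodes C1 inhibitor, the serpin that inactivates C1r, C1s and the lectin proteases, and also proteases of the contact system of blood. It maps to chromosome 15, 82544700 to 82557369, plus strand, in the same coordinates. Its counts were 112, 89 and 82 for ACADSB-/- against 236, 206 and 219 for WT libraries, and the groups lay far apart compared with their spread. In CPM this was 2.89 ± 0.293 against 7.01 ± 0.219 (SD, n = 3), a log2 fold change of −1.28 (SE 0.164, adjusted p = 9.35e-08, edgeR). Of all tested genes, 3.79% had a more negative fold change. The per-length ratio of *C1R* to its inhibitor was 0.245, 0.198 and 0.352 in ACADSB-/- and 0.298, 0.178 and 0.244 in WT libraries. These ratios overlapped, so the protease and its inhibitor were lower by amounts that the libraries did not separate. Of 4 contact system genes, *F11*, *KLKB1* and *KNG1* were at 0 reads in all 6 libraries, and *F12* had a log2 fold change of 0.02 (SE 0.423, adjusted p = 0.966, edgeR).

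*C3*, the protein on which every route converges (chromosome 7, 19069516 to 19105528, plus strand), was counted 196, 257 and 194 times in ACADSB-/- libraries and 153, 133 and 150 times in WT. All 3 ACADSB-/- libraries were higher, and ACADSB-/- replicate 2 stood above the others. The means were 6.69 ± 1.5 and 4.62 ± 0.238 CPM (SD, n = 3), with a log2 fold change of 0.53 (SE 0.165, adjusted p = 0.00699, edgeR). This was the smallest change past the test among the members, and 16.7% of all tested genes had a larger positive value. Without ACADSB-/- replicate 2 the log2 fold change was 0.34 and the adjusted p 0.112. A second gene, *LOC107132612*, lies inside *C3* on the minus strand from 19087697 to 19091095, counted 48, 44 and 50 times in ACADSB-/- libraries and 23, 18 and 25 times in WT. No source says whether counting used the strand, so reads of these genes cannot be told apart. When the counts of *LOC107132612* were taken from those of *C3*, an alternative chosen after seeing the data, the log2 fold change was 0.41 (adjusted p = 0.0585, edgeR).

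*CFB* encodes factor B, the protease zymogen that joins a C3 fragment to form the alternative convertase, and it changed most among the tested members. It maps to chromosome 23, 27295332 to 27301358, minus strand. Its 333, 233 and 212 counts in ACADSB-/- libraries stood against 82, 68 and 64 in WT libraries. The lowest ACADSB-/- library was thus well above the highest WT library. In CPM the means were 7.91 ± 1.40 and 2.27 ± 0.219 (SD, n = 3), a log2 fold change of 1.80 (SE 0.176, adjusted p = 4.71e-10, edgeR), and 1.39% of the tested genes had a larger positive value. The per-length ratio of *CFB* to *C3* was 3.55, 1.89 and 2.28 in ACADSB-/- and 1.12, 1.07 and 0.891 in WT libraries. These ratios did not overlap, so *CFB* was raised beyond *C3* in every ACADSB-/- library.

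*C2*, which encodes the protease that plays the part of factor B in the classical and lectin routes, lies 433 bases from *CFB*, on the same minus strand and upstream of it. It was counted 59, 90 and 67 times in ACADSB-/- libraries and 17, 11 and 9 times in WT, which did not overlap. Its log2 fold change of 2.5 (SE 0.361, adjusted p = 7.23e-07, edgeR) was a 5.65-fold difference. Among ACADSB-/- libraries, replicate 1 was highest in *CFB* and replicate 2 in *C2*, while in WT libraries replicate 1 was highest in both. The per-length ratio of *CFB* to *C2* was 2.71 to 5.91 in ACADSB-/- and 5.05 to 7.45 in WT libraries, and these overlapped. On the other side *NELFE*, a subunit of the negative elongation factor, ends 146 bases from *CFB* on the plus strand. It was far more abundant, with 94.1, 96.8 and 85.0 FPKM in ACADSB-/- and 110, 107 and 103 in WT libraries, and it fell by 0.25 on the log2 scale (adjusted p = 3.79e-04, edgeR), opposite to *CFB* and *C2*.

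**Figure D3:**
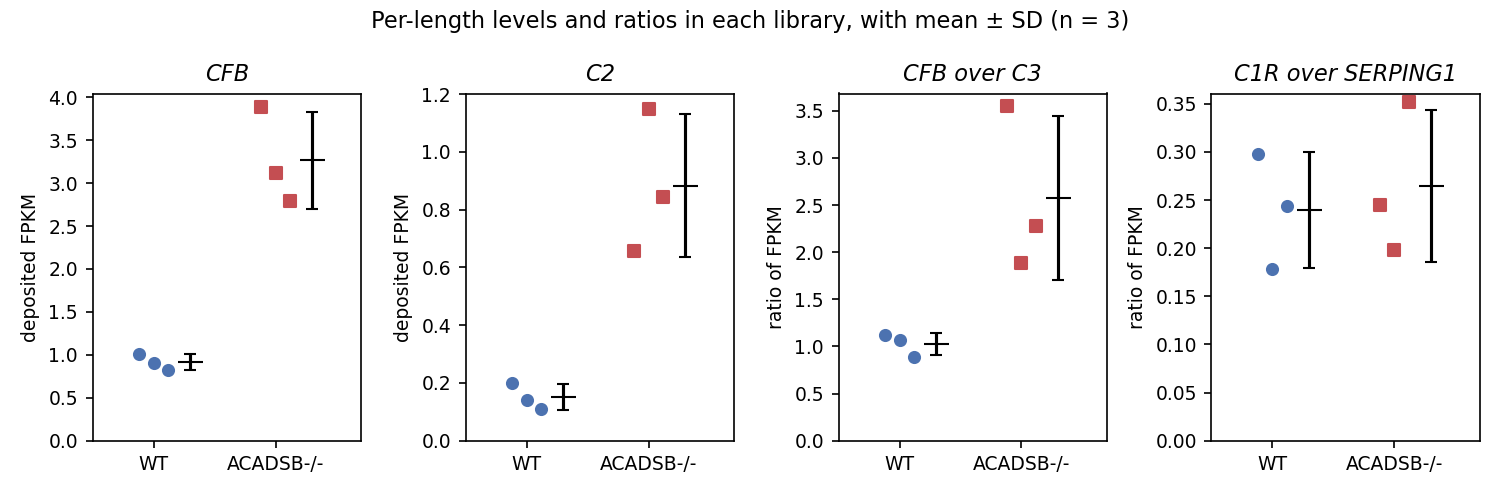
The left panels plot deposited FPKM of *CFB* and *C2*, and the right panels the ratio of FPKM of *CFB* to *C3* and of *C1R* to *SERPING1*, with 1 point per library and mean ± SD (n = 3) on axes from 0. Both genes and the *CFB* to *C3* ratio were higher in all ACADSB-/- libraries, while the *C1R* to *SERPING1* ratios of the groups overlapped.

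*CFI* encodes factor I, the serum protease that cleaves C3 and C4 fragments when a cofactor such as CD46 holds them. The gene (chromosome 6, 16917837 to 16968158, plus strand) had 1 read in WT replicate 2 and 0 in the other 5 libraries, as the FPKM values give them, and each 0 allows up to 3 counts. No change of *CFI* could be measured at this depth. The row of *LOC101905887*, which lies inside *CFI* on the opposite strand, had 176 to 226 reads in ACADSB-/- and 129 to 247 in WT libraries (adjusted p = 0.896, edgeR).

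*CD46*, membrane cofactor protein, is the cofactor that lets factor I inactivate deposited fragments, and in cattle it also serves as a receptor of bovine viral diarrhea virus. It maps to chromosome 16, 77737576 to 77776406, minus strand. The counts were 31857, 26037 and 26404 for ACADSB-/- against 14424, 14792 and 14465 for WT libraries, which were far from overlapping. The means of 862 ± 36.3 and 464 ± 23.2 CPM (SD, n = 3) gave a log2 fold change of 0.89 (SE 0.0490, adjusted p = 9.47e-16, edgeR), short of the 2-fold threshold. *CD46* had the smallest SE of the tested members. A *CD46*-like gene, *LOC518224*, lies 60977 bases away on the same strand and was counted 141, 142 and 129 times in ACADSB-/- libraries and 69, 85 and 92 times in WT, a log2 fold change of 0.69 (adjusted p = 0.00315, edgeR). Near-identical copies can share reads, and the sum of both genes, added after seeing the data, again had a log2 fold change of 0.89.

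*CD55*, decay-accelerating factor, takes the convertases of all routes apart and is held in the membrane by a glycolipid (GPI) anchor. It lies on the same chromosome as *CD46* but 72.6 megabases away, from 5122411 to 5141070. Its counts were 2692, 2352 and 2515 for ACADSB-/- against 769, 876 and 881 for WT libraries, with a narrow spread in both groups. The means were 77.5 ± 1.67 and 26.9 ± 2.98 CPM (SD, n = 3), and the log2 fold change of 1.53 (SE 0.0737, adjusted p = 4.19e-17, edgeR) was exceeded by 2.19% of the tested genes. *CD55* rose beyond *CD46*: the ratio of *CD46* to *CD55* per length was 7.02, 6.57 and 6.23 in ACADSB-/- and 11.1, 10.0 and 9.75 in WT libraries, with no overlap.

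*CD59*, or protectin, blocks the insertion of the last component into the pore and carries a GPI anchor like CD55. It was counted 3, 0 and 7 times in ACADSB-/- libraries and 3, 0 and 1 times in WT, on a gene model of 461 bases, the shortest of the 9 (chromosome 15, 65447935 to 65469461, minus strand). The groups overlapped, and the gene was too low for the filter. Without the filter its log2 fold change was 1.21 with a SE of 1.29 (adjusted p = 0.457, edgeR), so no difference was detectable at this depth. Of the 28 listed genes that build or attach GPI anchors, 27 were tested, 6 of them higher and 7 lower, and 14 missed the test, with a median log2 fold change of 0.00. Over all tested genes, 29.7% were higher and 28.6% lower. *PIGX* rose by 0.73 (adjusted p = 4.92e-07, edgeR) and *DPM2* fell by 0.53 (adjusted p = 6.13e-07, edgeR). None of the 27 was called at 2-fold, beside 10.2% of all tested genes.

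**Figure D4:**
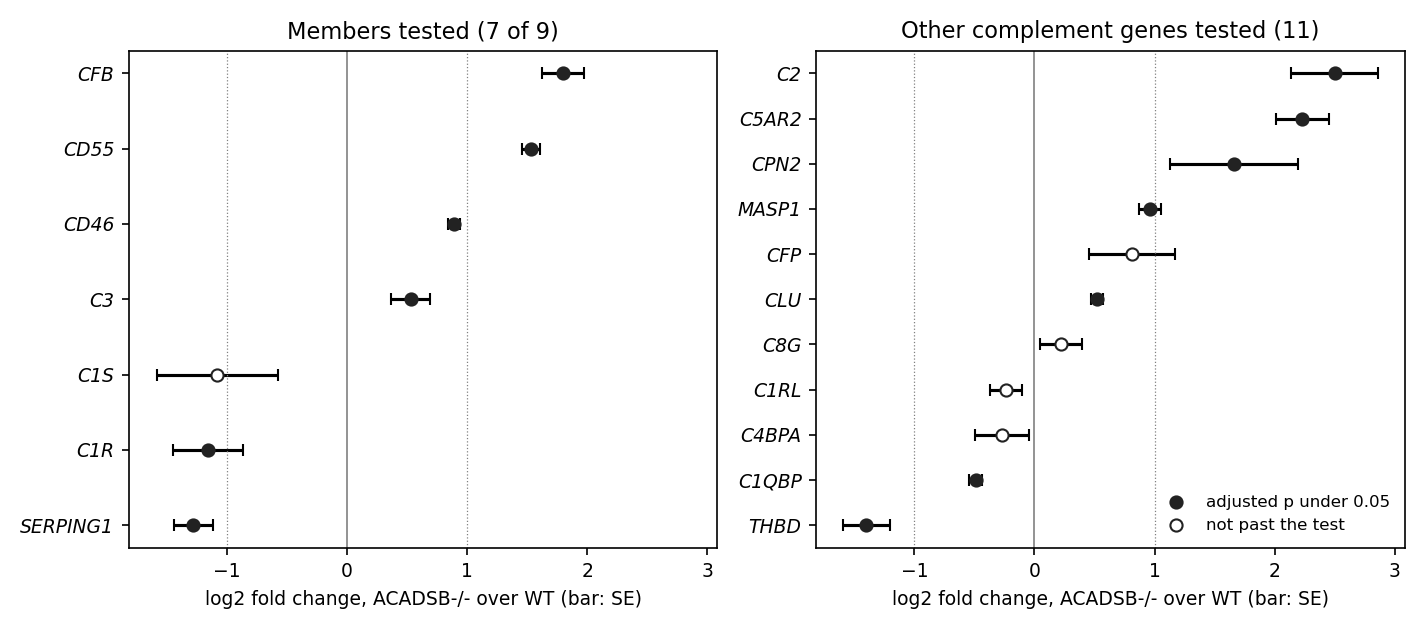
Log2 fold changes of ACADSB-/- over WT bMECs with their SEs, for the 7 tested members (left) and the 11 tested other complement genes (right); filled points passed an adjusted p of 0.05, and dotted lines mark a 2-fold change. *CFB* (1.80) and *SERPING1* (−1.28) are the extremes among the members, and *C2* (2.5) and *THBD* (−1.40) among the others.

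Many other complement genes had no reads in these cells. Of 51 other complement genes listed from textbook knowledge, 47 had a row in the FPKM table and 26 of them were at 0 in all 6 libraries. These included the recognition chains *C1QA*, *C1QB* and *C1QC*, the mannose-binding lectins *MBL1* and *MBL2*, *C5*, *C6*, *C7* and *C8A*. *CFD*, the protease that activates factor B, had 7, 0 and 0 reads in ACADSB-/- and 4, 0 and 0 in WT libraries. *C9*, which forms the pore, had 0, 1 and 4 against 0, 2 and 0 reads. *C4A* had no values under that symbol, and a C4A-like gene, *LOC617696*, had 16, 10 and 11 counts against 1, 12 and 10 (log2 fold change 0.61, adjusted p = 0.412, edgeR). The proteases of the classical route were thus transcribed with no read of the chains that recognise antibody.

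Of the 11 other complement genes that could be tested, 5 were higher and 2 lower, and 4 missed the test. Of all tested genes, 58.2% passed, with 29.7% higher and 28.6% lower. The median log2 fold change of the 11 was 0.52, beside 0.00 over all tested genes. *C5AR2*, a receptor for the C5a peptide, was counted 251, 184 and 203 times in ACADSB-/- libraries and 26, 52 and 52 times in WT. These did not overlap, and the log2 fold change was 2.23 (SE 0.219, adjusted p = 6.12e-10, edgeR). Its relative *C5AR1* had 3, 0 and 7 reads against 4, 14 and 12, too few to be tested. *THBD*, thrombomodulin, a membrane protein that supports inactivation of C3 fragments and restrains clotting, was counted 65, 88 and 66 times in ACADSB-/- libraries and 196, 155 and 210 times in WT (log2 fold change −1.40, SE 0.194, adjusted p = 3.70e-07, edgeR). *CPN2*, a subunit of the carboxypeptidase that trims complement peptides, had 19, 30 and 20 counts against 7, 11 and 3 (log2 fold change 1.66, SE 0.531, adjusted p = 0.00858, edgeR). The low-count filter kept *CPN2* and *C2* only through their ACADSB-/- libraries, where both are high, and both count among the 5 higher genes and in the median. *THBD* was the only membrane regulator of this list with enough counts to be tested, and it changed in the opposite direction to *CD46* and *CD55*.

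*MASP1*, *CLU* and *C1QBP* were named after their values were seen. *MASP1*, a protease of the lectin route that C1 inhibitor also blocks, was counted 1089, 913 and 879 times in ACADSB-/- libraries and 451, 480 and 499 times in WT (log2 fold change 0.96, SE 0.0911, adjusted p = 2.80e-10, edgeR). *CLU*, clusterin, a secreted chaperone that also blocks pore assembly, was the most abundant complement regulator examined, with 1768 ± 27.5 FPKM in ACADSB-/- and 1203 ± 48.9 in WT bMECs (SD, n = 3). It rose 1.44 times (adjusted p = 9.64e-11, edgeR). *C1QBP*, whose product binds the globular heads of C1q, fell by 0.49 on the log2 scale (adjusted p = 5.44e-09, edgeR). *CFP*, properdin, which stabilises the alternative convertase, had 42, 45 and 35 counts against 24, 24 and 19. Its groups did not overlap, and its log2 fold change of 0.81 had an adjusted p of 0.0530 (edgeR), short of the threshold.

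**Figure D5:**
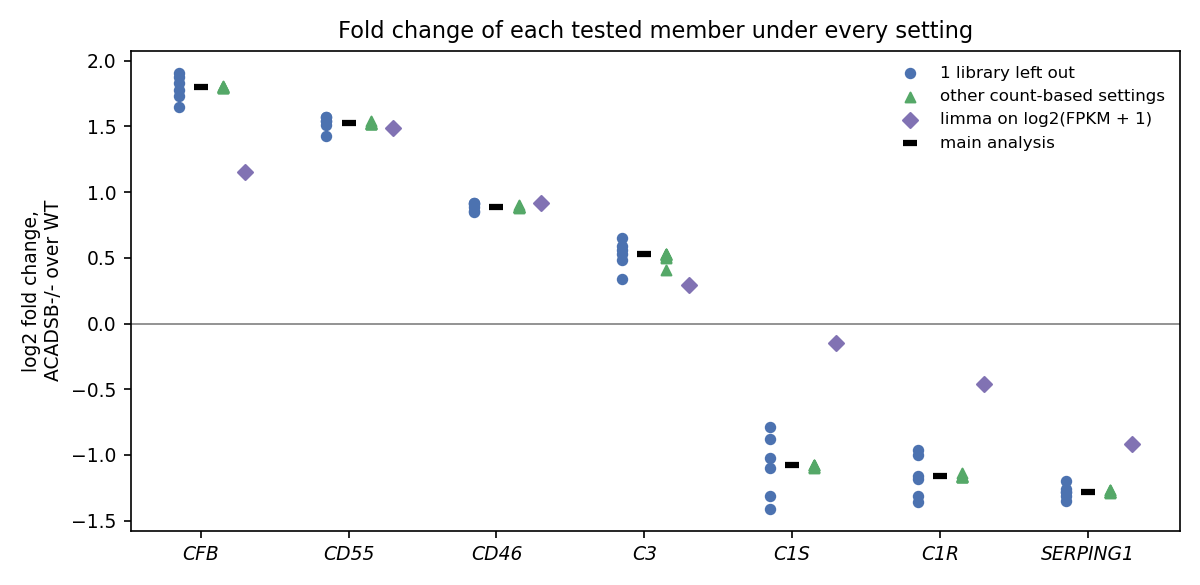
Log2 fold change of ACADSB-/- over WT bMECs for each tested member under every setting tried: black bars are the main analysis, circles leave out 1 library each, triangles are other count-based settings and diamonds are limma on log2(FPKM + 1). No member changed sign, and for *C1S*, *C1R*, *C3*, *CFB* and *SERPING1* the diamond is the value of that member nearest to 0, on a scale that understates genes of low FPKM.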

How the data were processed

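Total RNA libraries of ACADSB-/- and WT bMECs, with 3 in each group, were assigned from the sample labels. After trimming and alignment, the authors deposited raw read counts per gene (15693 genes) and FPKM (32774 genes), and the FPKM values gave back the table's counts within 0.02 reads for 99.98% of values. No aligner, counting tool, genome build, annotation or use of strand could be taken from the sources used here, and the only tool in the submitters' processing notes is Bismark 0.12.5, without its role. Deposited fold, log2 and p-value columns hold the authors' own comparison and were not used, nor were 3 FPKM columns of other samples.

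Genes passing filterByExpr (minimum count 10, minimum total 15; 13720 genes) were scaled by TMM (factors 0.978 to 1.02) and tested with edgeR 4.0.16's quasi-likelihood test (R 4.3.3, robust, condition alone, Benjamini-Hochberg over all tested genes). The standard error (SE) is the fold change divided by the root of its F statistic. A gene passed the test at an adjusted p under 0.05 and was called at 2-fold where log2 moved by 1 or more either way. CPM used TMM-scaled totals. A low gene could pass the filter through 1 group alone, the group where it is higher. Alternatives were DESeq2 1.42.0, limma 3.58.1 (voom, and log2(FPKM + 1)), upper-quartile scaling, other filters, a test beyond 2-fold, each library left out and the replicate number as a block. *CD46* summed with *LOC518224*, and *C3* less the counts of *LOC107132612*, were added after seeing the data. The steps were tested on simulated counts. Floors cover counting error only.

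All 9 members were described, with every other complement gene called at 2-fold and those whose counts show an absent step (not all are reported here); other lists name at most 2 genes by smallest adjusted p, and the marker genes, genes at 0, *C5AR1* and neighbouring genes were named after their values were seen. Members and lists were chosen with earlier results of these data known. Symbols of all 9 members matched RefSeq (ARS-UCD2.0), on the same chromosomes. Its coordinates were not used. Plots used matplotlib 3.10.9 (Python 3.11.15).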

Additional observations from a re-analysis of the deposited data

How the results depend on the processing

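Over 99 alternative values of the 7 tested members, 92 stayed on the same side of an adjusted p of 0.05, 6 lost the call, 1 gained it and 0 changed sign. The 99 include *CD46* summed with *LOC518224* and *C3* less *LOC107132612*, both added after seeing the data. *C1R*, *CD46* and *SERPING1* lost the call only with the test beyond 2-fold, which asks a stricter question. *C3* lost it there and under other alternatives. *CFB* and *CD55* passed under all 14 alternatives (log2 fold change 1.15 to 1.91 and 1.43 to 1.57), and *C2* under the 13 in which it was tested (0.70 to 2.76). In the alternatives that test against no change, *C3* had adjusted p-values of 0.00299 to 0.112 and *C1S* of 0.0456 to 0.239 (edgeR at each of these ends). With edgeR testing for a change beyond 2-fold, 2 members (*CFB* and *CD55*) passed, 2 higher and 0 lower (edgeR, adjusted p 0.241 for *SERPING1* and 1.00 for *C1R*), as did 2 other complement genes and 661 of all genes in place of 1402. With limma on log2(FPKM + 1), which understates low genes, 2 members and 540 genes were called at 2-fold, and 855 genes with a filter at a mean count of 50, which *C1S*, *C2* and *CPN2* did not pass and which left 5 other complement genes past the test in place of 7. Leaving out 1 library at a time gave 3 to 5 members called at 2-fold. The replicate block gave 6 members past the test and 4 at 2-fold, and same-numbered libraries did not deviate together (correlations −0.0402 to −0.0236). No pairing by number was thus detected, though so few libraries cannot exclude it. With few counts, *C1R*, *C1S*, *CD59* and *CFI* are limited by depth.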

Other observations

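The genes whose log2 CPM followed *CFB*, the member with the widest change, most closely over the 6 libraries were *KIAA0182* (Pearson's r 0.9986, log2 fold change 0.89), *KCTD14* (0.9986, log2 fold change 0.66) and *FADS6* (0.9977, log2 fold change 1.76). Such r values are a description: the 6 libraries form 2 groups, and 62 genes, or 0.452% of those tested, had an r above 0.99.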
